A study of Danio rerio with 24 samples.

Results

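The AP-1, EGR and immediate early genes described here are the rows of the deposited table whose listed zebrafish gene name equals, whatever its case, one of 10 names: *fosab*, *fosb*, *fosl1a*, *jun*, *junba*, *junbb*, *egr1*, *egr3*, *atf3* and *ier2*. They take 12 of the 18987 rows, because 8 of the names have 1 row each and *fosab* and *ier2* have 2 rows each. RNA came from ventricles of adult wild-type zebrafish, 3 or 4 ventricles pooled per sample, after the atrium and the bulbus arteriosus had been removed. The series has 24 samples in 6 groups of 4: cryoinjured and exercised, cryoinjured and non-exercised, and sham-operated and non-exercised fish, each at 7 and at 14 days post injury (dpi). Exercised fish swam daily in a tunnel from 3 dpi, so those sampled at 14 dpi had swum on more days than those at 7 dpi. No sham-operated group was exercised. The time between the last swim and the removal of the heart is not given in the sources used here.

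AP-1 is a dimer of leucine zipper proteins, in which a Fos protein pairs with a Jun protein, or Jun proteins pair with each other, on a short DNA element. Several of its genes, c-Fos, FosB and c-Jun among them, and the EGR zinc finger genes are immediate early genes. Their transcription starts within minutes of a growth factor, stretch or stress signal and needs no new protein. For c-Fos, FosB and EGR genes, transcription is driven largely by MAP kinases acting on serum response factor, its ternary complex partners and CREB. In the injured zebrafish heart, AP-1 factors are known to act in cardiomyocytes at chromatin that opens after injury.

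The table holds 1 value per gene that could be used, the authors' mean normalized count over the samples in their model, and 0 columns of values for single samples. No value by group, spread or depth per sample can therefore be given, and exercised and non-exercised ventricles, 7 and 14 dpi, and injured and sham-operated ventricles were not compared. The counts are not divided by transcript length, for which no source was used here. They show how many reads stand behind each gene, and do not order the genes by transcript level. In these pools of whole ventricles, a gene used in few cells and a gene with little RNA per cell cannot be told apart. For 8 genes listed for ventricular cardiomyocytes, the mean counts ran from 2389 for *nppb* to 399058 for *vmhcl*, a ventricular myosin heavy chain. The list includes the natriuretic peptide genes *nppa* and *nppb*. The study used *nppa* as a marker of cardiac stress and described its expression as usually high in the atrium, so *nppa* does not mark the ventricle alone. The atrial myosin gene *myh6* was also counted, at 3281, beside 37309 for the ventricular *vmhc*. The gene *tbx5a*, listed together with *myh6*, had 674. Whether atrial tissue remained in the pools was not tested. Macrophage and neutrophil markers lay between 16.3 for *mpx* and 465 for *marco*, endocardial and endothelial markers between 222 for *pecam1* and 3550 for *cdh5*, and epicardial and fibroblast markers between 112 for *wt1b* and 12777 for *col1a1a*. Erythrocyte markers were present as well, with 25133 for *hbaa1* and 4339 for *alas2*, while the name *hbba1* was not matched. Which of these cells contributed the AP-1, EGR and immediate early transcripts was not tested.

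Of the 12 rows, 8 had a mean count above that of the median gene, 79.7, and 4 had one below it. All percentiles given here rank a gene's mean count among the 18978 genes with a mean count above 0. The median percentile of the 12 rows was 62.6, where all genes have 50 by construction, and their median count was 143. Together the 12 rows held 5106 mean counts, or 0.0432% of the sum over all genes. The rows were spread over nearly the whole range of the table, from percentile 5.24 for the second *fosab* row to 95.9 for *atf3*.

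**Figure D1:**
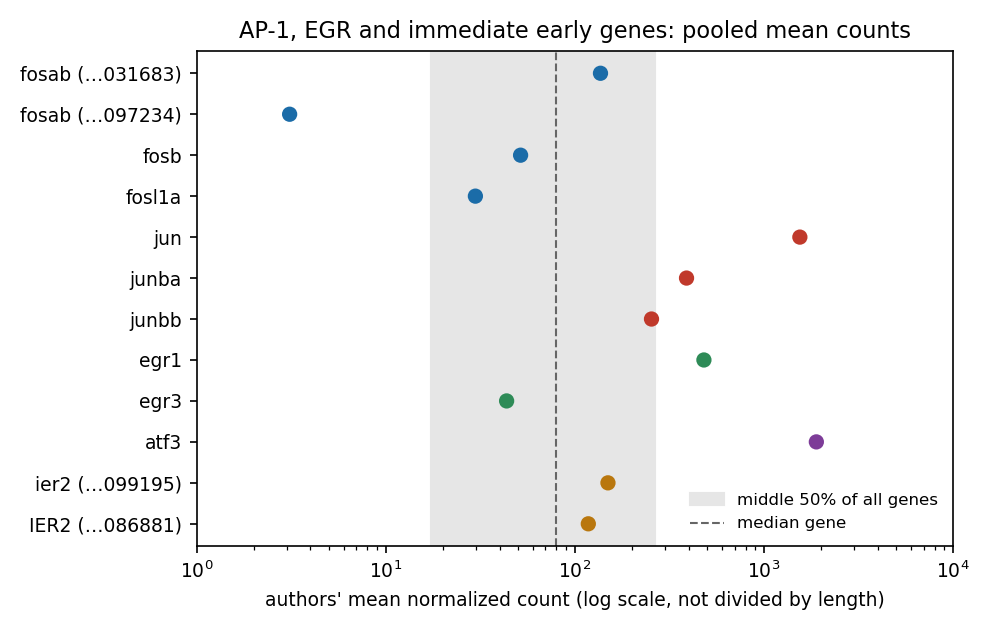
Authors' mean normalized count of each of the 12 rows on a log axis, not divided by length, 1 point per row, with blue for FOS, red for JUN, green for EGR, purple for ATF3 and orange for IER2 genes. The dashed line is the median gene at 79.7 and the grey band spans the middle 50% of genes, from 17.3 to 266; *atf3*, *jun*, *egr1* and *junba* lie to the right of the band and the second *fosab* row to its left.

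Among the Jun genes, *jun*, the zebrafish counterpart of the c-Jun gene, had a mean count of 1551 (percentile 95.0). The duplicated *junba* and *junbb* genes, both copies of mammalian *JUNB*, had mean counts of 390 (percentile 81.8) and 255 (percentile 74.2). All 3 Jun rows thus lay above the median gene, and they held 43.0% of the mean counts of the 12 rows. Of their relatives, *jund*, a Jun gene that in mammals is present in many resting cells, had 2770. Over *jun*, *junba*, *junbb* and *jund*, *jund* took 55.8% of the counts, *jun* 31.2%, *junba* 7.86% and *junbb* 5.13%.

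The 3 Fos genes of the set rested on fewer reads than *jun*, *junba* or *junbb*. The main *fosab* row (ENSDARG00000031683), the counterpart of c-Fos, had a mean count of 137 (percentile 61.7). For *fosb*, which encodes FosB, the mean count was 51.7 (percentile 41.8), and for *fosl1a*, which encodes a Fra-1 protein and whose mammalian counterpart is induced later than c-Fos, it was 29.8 (percentile 32.6). The 4 Fos rows held 4.34% of the mean counts of the 12 rows, and 3 of them lay below the median gene. The second row named *fosab* (ENSDARG00000097234) had a mean count of 3.11, and its identifier was paired with no symbol in the gene names used here. Whether reads that match more than 1 copy were dropped or split is not given in the sources used here, so the division of reads between the *fosab* rows, and between other close copies named here, is uncertain. Among the other Fos genes, *fosl2*, the Fra-2 gene, had 821 mean counts and *fosl1b*, the other Fra-1 copy, had 10.5. The c-Fos copy *fosaa* was not matched and was not analysed here. Over the matched Fos genes, *fosl2* took 78.0% of the counts and *fosab*, with its rows summed, 13.3%. Reads in the matched Jun and Fos genes thus came mostly from *jund*, *jun* and *fosl2*, and less from the *junb* and *fosab* copies.

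The *atf3* gene, which encodes a stress-induced leucine zipper protein of the ATF/CREB group that can pair with Jun proteins, had the largest mean count of the 12 rows, 1896 (percentile 95.9). With *jun* it held 67.5% of the mean counts of all 12 rows, but 24.4% once the other AP-1 and leucine zipper genes were added to the sum, a choice made after seeing the data. Among the 12, *atf3* and *jun* were the only rows above percentile 90. The related genes *atf4a* and *atf4b*, effectors of the integrated stress response, had 2376 and 2153.

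The zinc finger gene *egr1* had a mean count of 482 (percentile 85.0), and *egr3* had 43.6 (percentile 38.8). Together they held 10.3% of the mean counts of the 12 rows. Their relative *egr2a* had 1.82 and was at the low end of the table, and the names *egr2b* and *egr4* were not matched and were not analysed here. The NAB genes, which encode corepressors that bind EGR proteins and limit their activity, had mean counts of 7.75 for *nab1a*, 20.5 for *nab1b* and 35.3 for *nab2*. Together *egr2a* and the NAB genes made 4 matched rows, all below the median gene, with a median count of 14.1.

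The immediate early response gene 2 was listed as *ier2* (ENSDARG00000099195) and as *IER2* (ENSDARG00000086881), identifiers that the gene names used here pair with *ier2a* and *ier2b*. Their mean counts were 150 (percentile 63.6) and 118 (percentile 58.4). Both copies lay above the median gene, and they held 5.24% of the mean counts of the 12 rows. Among only the genes with a mean count of at least 10, the *IER2* row was at percentile 49.2, just below the middle. The related *ier5* and *ier5l* had 518 and 186.

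Wider lists of genes linked to the same response were matched by name in the same way, as a description. Of 18 other AP-1 and leucine zipper genes 13 were matched, 8 of them above the median gene, with a median count of 211 and a range from 10.1 for *atf2* to 2770 for *jund*. Of 25 other immediate early genes all were matched, and 23 lay above the median gene and 14 above percentile 90. Their median count was 858 (percentile 91.5), and the highest was that of *nr4a3*, an orphan nuclear receptor, with 4344. The lowest was that of *socs3a*, a copy of a feedback inhibitor of cytokine signalling, with 0.347, while its other copy *socs3b* had 424. In this list *dusp1*, a phosphatase that turns MAP kinases off, had 1062, the row listed as *ZFP36*, whose identifier (ENSDARG00000103720) the gene names used here pair with zgc:162730, had 1179, and *btg2*, an antiproliferative gene, had 995.

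Upstream of several of these genes, 12 of 13 names for serum response factor, its cofactors and the CREB family were matched. Of the matched genes, 9 lay above the median gene, and the median count of the list was 142. The serum response factor copies *srfa* and *srfb* had 141 and 263. Among their ternary complex partners, *elk3* had 444, *elk1* 58.3 and *elk4* 37.0. The highest of the list was *crema*, a copy of the cAMP-responsive modulator, with 1008, and the lowest was *cremb* with 34.9. The name *mrtfab* was not matched, but the row listed under *mkl1b* carries that symbol in the gene names used here and had 280. All 11 MAP kinase and MAP kinase kinase genes were matched and 10 lay above the median gene, from 70.9 for *mapk7* to 573 for *mapk3*, which encodes ERK1. The genes *mapk8a*, *mapk8b* and *mapk9*, which encode Jun N-terminal kinases, had 113, 206 and 83.5.

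**Figure D2:**
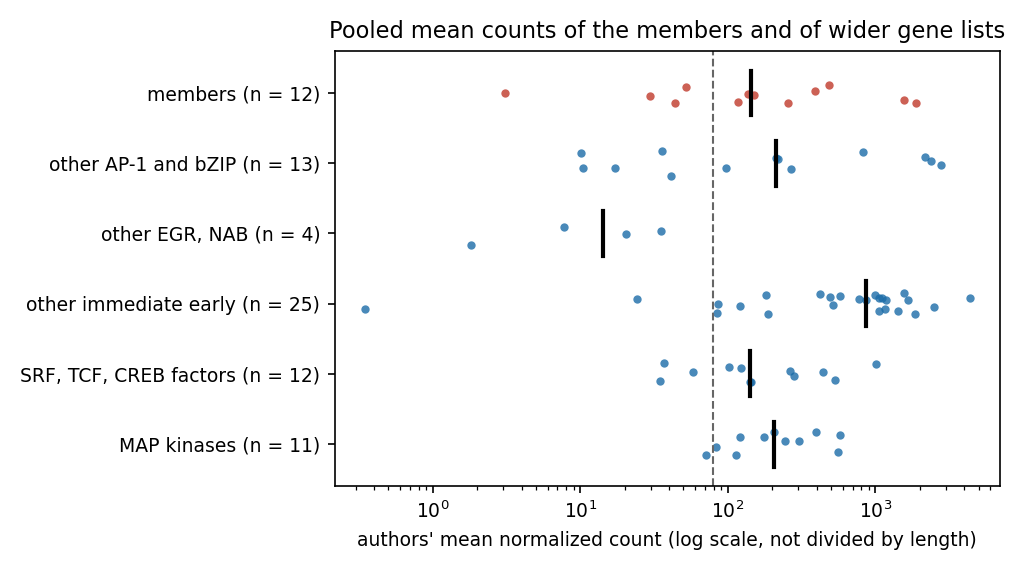
Authors' mean normalized count on a log axis, not divided by length, for each matched row of the 6 lists, 1 point per row, with the 12 rows described here in red, the other lists in blue and a black bar at each list's median. The dashed line is the median gene at 79.7. The medians run from 14.1 in the list of other EGR and NAB genes, which leaves out *egr1* and *egr3*, to 858 among the other immediate early genes. That of the 12 red points is 143.

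The position of the genes was read from the order of protein-coding genes in the reference annotation GRCz12tu, a later assembly than the one the reads were aligned to, and only names were taken from it. The *fosab* gene is followed there by *batf* and then *jdp2b*, and *fosaa* lies next to *jdp2a*, so that each c-Fos copy sits by a copy of the gene for Jun dimerization protein 2. The mean counts of *jdp2a* and *jdp2b* were 35.9 and 41.2, and *fosaa* and *batf* were not matched by name in the table and were not analysed here. The *atf3* gene lies next to *batf3*, another leucine zipper gene. The Fra-1 copies share their neighbours too, as *fosl1a* and *fosl1b* each lie within 3 genes of a copy of *fibp* and of *efemp2*. For those near *fosl1a* the mean counts were 209 for *fibpa* and 2141 for *efemp2a*, and near *fosl1b* they were 50.3 for *fibpb* and 221 for *efemp2b*. In the same way *ier2a* and *ier2b* each lie within 3 genes of a copy of *nacc1* and of the calcium channel gene *cacna1a*, whose copies *cacna1aa* and *cacna1ab* had 182 and 84.4.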

How the data were processed

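RNA was extracted from pooled ventricles, libraries were made with poly-A capture and reads were aligned by the authors to GRCz10. The submitters' processing notes name TopHat2 2.1.0, HTSeq 0.6.0 and DESeq2. The deposited signal is the authors' mean count over the modelled samples after division by size factors, 1 value per gene. The study's methods describe pools of cryoinjured fish only, 4 per condition and time point, but whether the deposited mean covers exactly these is not given in the sources used here. The other 7 numeric columns hold the authors' own comparisons of exercised and non-exercised fish (fold changes, a standard error, a statistic and p-values) and were not used, so no test was made.

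Rows were matched by name, ranked among the 18978 genes with a mean count above 0, and described by counts and medians, with Python 3.11.15, numpy 2.4.6 and pandas 2.3.3. The percentile formula was checked on shuffled values of known rank without ties, and not on simulated counts. Current symbols came from a table that pairs Ensembl identifiers with names, in which 11 of the 12 rows had one, and gene order came from GRCz12tu. All 10 members were named, and of the wider lists the highest, the lowest and genes chosen after their values were seen. The members and lists were chosen with earlier results of these data known. Planned levels per coding length, promoter motifs and protein comparisons were not run, as no sequence or transcript length was used here.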

Additional observations from a re-analysis of the deposited data

How the results depend on the processing

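No paired analysis was possible because the table has no value for single samples, and for the same reason no replicate could be left out and no fit by group was run. When only the 15560 genes with a mean count of at least 10 were ranked, the second *fosab* row dropped out and the median percentile of the other 11 rows was 55.6. Ranked among the 14330 genes whose name is a protein-coding symbol of the reference, a choice made after seeing the data, the median was 57.1. The first ranking leaves out the lowest counts, so every percentile falls by construction. The percentiles of single rows fell by 0.9 to 14.8 points there, most for *fosl1a*, from 32.6 to 17.7. The *IER2* row moved from 58.4 to 49.2, and so from above to below the middle of the ranked genes. The share of *atf3* and *jun* was 24.4% of the counts of the 12 rows and the other AP-1 and leucine zipper genes together, also chosen after seeing the data. Settings for coding or transcript length, motif mismatches and protein identity were not run. The depth of each sample is unknown, so no counting interval could be given.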
